A study of Moxostoma hubbsi with 18 samples.

Results

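The 8 subunits of the CCT chaperonin were followed in whole copper redhorse larvae. The species, Moxostoma hubbsi, is a sucker of fresh water whose survival is threatened. The subunits are the features K09493, K09494, K09495, K09496, K09497, K09498, K09499 and K09500. These are KEGG orthology identifiers, each standing for a group of equivalent genes, and in this order they are called CCT1 to CCT8 here. They were chosen by identifier from the 9645 features of the series count table, and all 8 were present there and in the count file of every library. River water larvae (9 libraries) were compared with laboratory water larvae (9 libraries, the control). Each library held the pooled RNA of 5 whole larvae at 14 days post fertilization. The labels give no strain, tank, family or site, so p-values measure the spread between pools, which may be partly technical.

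CCT, also called TRiC, is the chaperonin of the eukaryotic cytosol. Its subunits are related but distinct proteins, and a copy of each sits at a fixed place in each of a pair of stacked rings. Newly made proteins are closed inside and fold there in a cycle driven by ATP. Actin and tubulin are its best known clients, so muscle, nerve, eye and dividing cells of a larva all depend on it. In yeast the subunits on one side of the ring (CCT1, CCT2, CCT4 and CCT5) bind ATP tightly, and those on the other side (CCT3, CCT6, CCT7 and CCT8) bind it weakly. Because every ring needs all subunits, the questions here were whether any of them differed between the waters and whether they moved together from pool to pool. Suckers descend from an ancient doubling of the genome, and a KEGG feature would pool the copies of a subunit, so opposite changes of copies would be hidden.

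Total counts per library were 14868181 to 20095604 in river water and 15893484 to 20584727 in laboratory water. River water replicate 1 was the library least like its group. The median Spearman correlation of this replicate with the other river water libraries was 0.956, against 0.988 to 0.996 in the other 8, of which replicate 6 was the lowest. In laboratory water the corresponding values were 0.992 to 0.996. Correlations over the river water pools and the summed level are given with and without river water replicates 1 and 6. In bulk RNA of whole larvae, fewer cells that express a gene and less RNA per cell cannot be told apart. Cell type markers and other chaperone genes were not analysed here, because the files give identifiers without gene names.

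No CCT subunit passed the test between the waters. In the comparison over all features, 0 of the 8 reached an adjusted p of 0.05 (edgeR quasi-likelihood test, Benjamini-Hochberg adjustment over 9008 features), where 6.27% of all features tested passed. The share of all features that passed and were lower in river water was 4.14%. At an unadjusted p under 0.05 edgeR singled out 0 subunits, where 23.7% of features were below that level. DESeq2 singled out 2 at that unadjusted level, CCT3 and CCT7, where 24.4% of features were below it, and called 0 after adjustment, where it called 9.96% of features. Limma-voom had 0 subunits at either level, against 23.5% of features unadjusted and 6.42% after adjustment. The pools of the waters did not separate completely for any subunit, as they did for 0.888% of features.

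The log2 fold changes (river over laboratory water) were all slightly below 0, from -0.054 to -0.0026, with a median of -0.039. The median over all features was 0.0090, and 47% of features had a value below 0. With libraries scaled by their totals alone the median of the subunits was -0.019, 7 of the 8 were below 0, the median over all features was 0.029 and 40.3% of features were below 0. The value of CCT4 was the closest to 0, and its sign turned when libraries were scaled by their totals alone (0.016), in the unfiltered series table, within file number 1 (a number in the deposited file names, of unstated meaning) and without 7 of the 18 libraries in turn. The median size of the log2 change, whatever its direction, was 0.039 among the subunits and 0.086 among all features. The features were not matched to the subunits for abundance, so the smaller size is not shown to be particular to CCT. The log2 changes of the subunits share the same pools, and the subunits moved together in laboratory water. The shared sign is therefore not 8 separate observations.

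**Figure D1:**
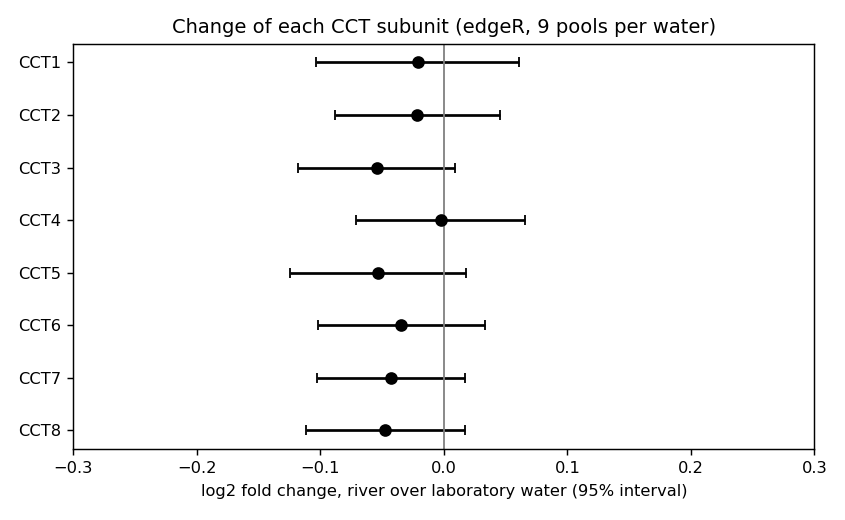
The log2 fold change of each subunit, river over laboratory water, is shown as a point with its 95% interval (edgeR, 9 pools per water). Every interval includes 0, and the interval of CCT5 reaches lowest, to -0.125.

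The subunits of the tight ATP-binding side are given first. CCT1 (also called TCP1), the subunit through which the complex was first recognised, in the mouse t complex, lay at 323 CPM in the lowest, 352 CPM in the median and 385 CPM in the highest river water pool. In laboratory water the lowest, median and highest CCT1 levels were 335, 357 and 385 CPM. CPM are counts scaled to a common library size, here by the main scaling (TMM). Levels of different subunits are not compared with each other because gene lengths were not available. The CCT1 ranges overlapped almost entirely, with river water replicate 6 lowest and replicate 8 highest. Its mean was 353 ± 19.2 CPM in river water and 359 ± 17.6 CPM in laboratory water (SD, n = 9 each). On the log2 scale river over laboratory water came to -0.02 ± 0.039 (SE) for CCT1, and its adjusted p was 0.778 (edgeR).

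CCT2, whose variants in human families cause an inherited blindness of infancy, had 381, 393 and 434 CPM in the lowest, median and highest river water pools, against 394, 405 and 423 CPM in laboratory water. River water spread wider on both ends. It had 5 pools below the lowest laboratory pool and 1, replicate 1, above the highest. For CCT2 the edgeR log2 fold change of -0.02 ± 0.032 (SE) had an adjusted p of 0.721.

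CCT4, altered in a rat line with a sensory nerve disease, had 396, 415 and 447 CPM in the lowest, median and highest river water pools, against 393, 414 and 442 CPM in laboratory water. Its means, 417 ± 14.9 CPM in river water and 418 ± 16.1 CPM in laboratory water (SD, n = 9 each), were the closest of any subunit. Its edgeR log2 fold change, -0.0026 ± 0.033 (SE), gave an adjusted p of 0.972. The 95% interval of the CCT4 difference ran from -4.81% to 4.67%.

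CCT5, altered in a human sensory neuropathy and needed for muscle fibre assembly in zebrafish, had 372, 379.5 and 421 CPM in the lowest, median and highest river water pools, against 380.0, 393 and 424 CPM in laboratory water. In river water 6 of 9 pools lay below the lowest laboratory pool, and replicate 1 alone lay above the laboratory mean. EdgeR put the log2 fold change of CCT5 at -0.05 ± 0.034 (SE) and its adjusted p at 0.352. Leaving out river water replicate 1 brought the CCT5 log2 fold change to -0.067 and its adjusted p to 0.17 (edgeR), the lowest adjusted p of any subunit in the fits that left out 1 library.

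On the other side of the ring is CCT3, which zebrafish need for eye and muscle development. Its log2 fold change was the farthest from 0 with all pools and the main scaling, within 1 SE of that of CCT5. CCT5 lay farther from 0 without river water replicate 1. It also did so with libraries scaled by their totals alone (-0.036, against -0.034 for CCT3). CCT3 lay at 268 CPM in the lowest, 278 CPM in the median and 285 CPM in the highest river water pool, against 274, 285 and 303 CPM in laboratory water. Under the main scaling none of the 9 river water pools (0 of 9) exceeded the laboratory mean, and 3 were below the lowest laboratory pool. The means were 276 ± 6.58 CPM in river water and 287 ± 11.1 CPM in laboratory water (SD, n = 9 each). The difference in CCT3 was -0.05 ± 0.031 (SE) on the log2 scale, for which edgeR gave an unadjusted p of 0.0903 and an adjusted p of 0.286. DESeq2 gave an unadjusted p of 0.0327 and an adjusted p of 0.16. With libraries scaled by their totals alone edgeR gave CCT3 an adjusted p of 0.661.

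CCT6, which has a second, testis-specific gene in mammals, had 417, 431 and 463 CPM in the lowest, median and highest river water pools, against 428, 445 and 476 CPM in laboratory water. The ranges overlapped, with 3 river water pools below the lowest laboratory pool and 0 above the highest. At -0.03 ± 0.032 (SE), the log2 fold change of CCT6 had an adjusted p of 0.542 (edgeR).

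CCT7, known in mammals to bind a nitric oxide receptor enzyme, had 348, 363 and 378 CPM in the lowest, median and highest river water pools, against 362, 368 and 393 CPM in laboratory water. Replicate 8 alone of the river water pools lay above the laboratory mean, and replicate 1 was the lowest of all. The means were 362 ± 8.40 CPM in river water and 373 ± 11.1 CPM in laboratory water (SD, n = 9 each). In edgeR the log2 fold change of CCT7 came to -0.04 ± 0.029 (SE) and its adjusted p to 0.379. DESeq2 gave CCT7 an unadjusted p of 0.0486.

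CCT8, linked in worms to assembly of the complex and to lifespan, had 335, 348 and 366 CPM in the lowest, median and highest river water pools, against 347, 356 and 377 CPM in laboratory water. In river water 1 of 9 pools, replicate 8, was above the laboratory mean. With a log2 fold change of -0.05 ± 0.031 (SE), CCT8 had an adjusted p of 0.359 (edgeR).

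**Figure D2:**
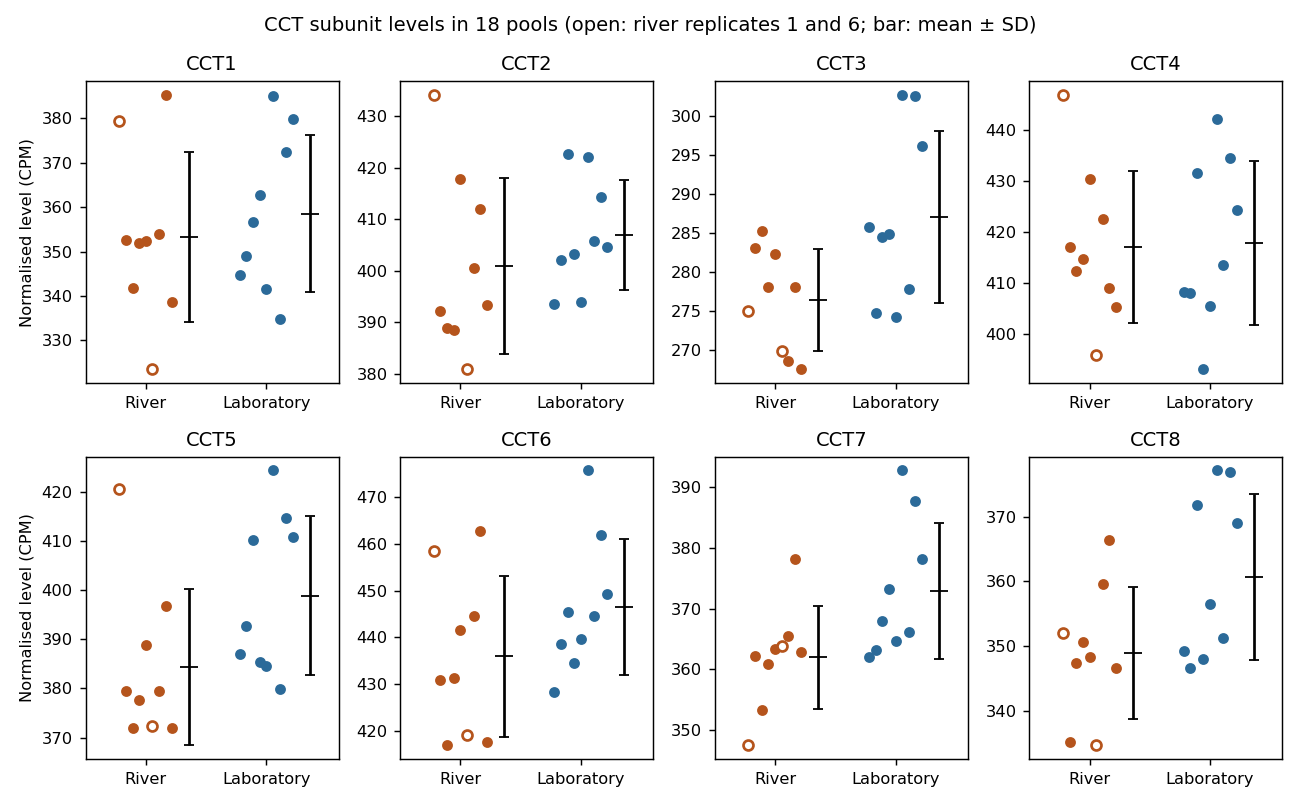
Normalised level of each subunit (CPM, axes not starting at 0) in the 9 river water pools and the 9 laboratory water pools, with the mean and SD beside each group. Open circles are river water replicates 1 and 6. The groups overlap for all 8 subunits.

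The intervals give a range for the difference of each subunit, taken separately, under the main scaling and with pools treated as independent. Over the 8 subunits the 95% intervals of the river water difference reached no lower than -8.30% (CCT5) and no higher than 4.67% (CCT4). A subunit had between 3565 and 9059 counts per library, and the counting error alone was 1.12% to 1.4% (CV, from the mean count). The observed CV between pools was 2.32% to 5.43% in river water and 2.63% to 4.92% in laboratory water. The biological CV that edgeR estimated was 5.28% to 6.69% for the subunits, with a median of 5.77%, and the median over all features was 8.94%. That estimate is drawn towards the trend over all features, and for each subunit it lay above the observed CV of either water. The features of this comparison were not matched to the subunits for abundance.

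Summed over the 8 subunits, the level was 2979 ± 84.7 CPM in river water and 3049 ± 99.99 CPM in laboratory water (SD, n = 9 each). The lowest, median and highest pools had 2860, 2954 and 3114 CPM in river water, against 2959, 2985 and 3222 CPM in laboratory water. The river water mean was 2962 ± 72.5 CPM without replicate 1 (SD, n = 8) and 2977 ± 64.6 CPM without replicates 1 and 6 (SD, n = 7). As a share of all counts, with no scaling, CCT made up 0.272% to 0.312% in river water and 0.289% to 0.313% in laboratory water. Replicate 1 held the lowest share, 0.272%, yet the highest scaled sum in river water, 3114 CPM. Its scaling factor was 0.872, against 0.955 to 1.09 in the other 17 libraries. Whether this pool was high or low in CCT therefore depended on the scaling.

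The subunits moved together among the laboratory water pools. Under the main scaling all 8 subunits were above their laboratory mean in replicates 6 and 8. In replicates 1, 2, 5 and 7 all 8 were below it. Replicate 6 was the highest laboratory pool for 7 of the 8 subunits, with a mean deviation of 0.080 on the log2 scale. Replicate 6 was also the laboratory library least like its group over all features (median Spearman correlation 0.992). Among the river water pools, under the same scaling, 0 had all subunits on one side of the mean. In 4 river water pools 7 of the 8 lay on one side. Replicate 8 had 7 above and CCT4 below, replicate 3 had 7 below and CCT3 above, and replicates 6 and 9 had 7 below and CCT7 just above. Replicate 6 was the lowest river water pool for 4 subunits. Replicate 1 was the highest pool for CCT2, CCT4 and CCT5 and the lowest for CCT7. The sides depend on the scaling and were not counted with libraries scaled by their totals alone. As an unscaled share of all counts, CCT was highest in river water replicate 3 (0.312%) and lowest in replicate 1 (0.272%) among the river water pools. Laboratory water replicates 1 and 2 held 0.305% each, above replicate 3 (0.295%), whose scaled sum was higher than theirs.

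**Figure D3:**
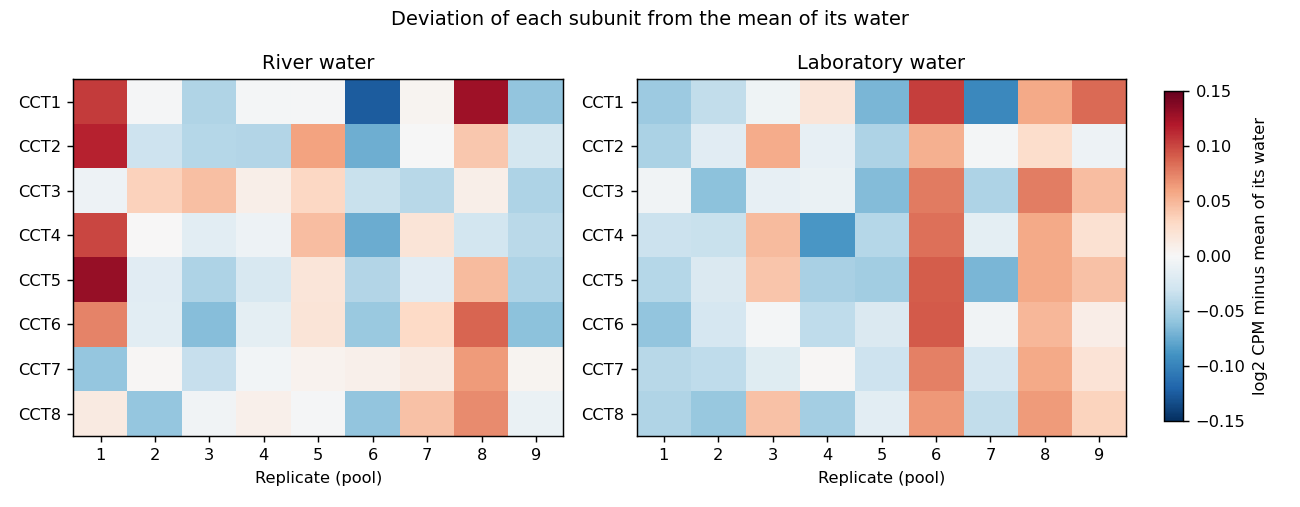
Deviation of each subunit from the mean of its own water (log2 CPM under the main scaling, colour) by pool, river water left and laboratory water right. Columns of 1 colour in laboratory water are pools where all 8 subunits moved one way. In river water replicate 1 the CCT5 cell is at 0.131 and the CCT7 cell at -0.058.

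Over the 9 pools of each water the 28 pairs of subunits were correlated (log2 CPM), which made 56 correlations with p-values adjusted over them. In river water the median Pearson r was 0.389 and ranged from -0.529 to 0.928, with 23 of 28 pairs positive. In laboratory water the median was 0.800 and ranged from 0.578 to 0.921, with 28 of 28 pairs positive. By exact permutation 9 river water pairs and 20 laboratory water pairs had an adjusted p under 0.05. With Spearman's rho, whose medians were 0.475 in river water and 0.733 in laboratory water, 3 pairs in river water and 4 pairs in laboratory water did so. The share of pairs passing either test was not computed for other features, so these counts have no background. For comparison, the median r over all pairs of tested features was 0.00085 in river water and -0.0033 in laboratory water. Among the 397 features at least as abundant as the least abundant subunit it was 0.340 in river water and 0.422 in laboratory water. Without river water replicates 1 and 6 the river water median of these features was 0.319. Of their pairs, 44.15% in river water and 44.89% in laboratory water had an r above 0.5. Of the 28 subunit pairs, 13 in river water and 28 in laboratory water did so. All these correlations share library scaling. The difference in agreement between the waters was not tested.

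The river water value changed with replicate 1 left out and with the scaling. Without replicate 1 the median r was 0.592, and without replicates 1 and 6 it was 0.523. Both values were below the 0.800 of laboratory water. With libraries scaled by their totals alone it was 0.818 in river water and 0.750 in laboratory water. Under that scaling replicate 1 was the lowest pool in summed CCT (0.272% of its counts). The median over all pairs of features was not computed under that scaling, so how far 0.818 is particular to the subunits is not known. Without the 2 pools farthest from the median of the lower-numbered subunit, the r of the pairs ran from -0.573 to 0.951 in river water and from 0.221 to 0.928 in laboratory water.

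With all pools kept, CCT3 and CCT7 carried the low values in river water. The median r was 0.092 over the 13 river water pairs that included either of them and 0.778 over the other 15. Without replicate 1 these medians were 0.319 over the 13 pairs and 0.719 over the 15, and without replicates 1 and 6 they were 0.189 over the 13 pairs and 0.589 over the 15. The same medians with all pools in laboratory water were 0.795 over the 13 pairs and 0.805 over the 15. The 7 pairs of CCT7 had a median r of -0.154 with all river water pools, 0.564 without replicate 1 and 0.670 without replicates 1 and 6. The 7 pairs of CCT3 had a median of 0.092 with all river water pools, 0.225 without replicate 1 and 0.031 without replicates 1 and 6. For the 7 pairs of CCT4 the median was 0.617 with all river water pools, 0.428 without replicate 1 and 0.252 without replicates 1 and 6. With those pools left out, the lowest medians were thus those of CCT3 and CCT4, and not that of CCT7. CCT3 and CCT7 were singled out after their values were seen.

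CCT3 with CCT7 gave r = -0.154 (exact permutation p = 0.694, adjusted p = 0.762) and rho = -0.4 (exact p = 0.291, adjusted p = 0.371) in river water (n = 9). In laboratory water the same pair gave r = 0.910 (exact permutation p = 0.000876, adjusted p = 0.00928) and rho = 0.733 (exact p = 0.0311, adjusted p = 0.0792), n = 9. Without the 2 pools farthest in CCT3 the r was -0.070 in river water and 0.756 in laboratory water (n = 7 each). The river water r was -0.271 without replicate 1 and -0.289 without replicates 1 and 6.

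With all river water pools the closest pair by r was CCT2 with CCT5, ring neighbours on the tight ATP-binding side. Their r was 0.928 (exact permutation p = 0.000909, adjusted p = 0.00928) and their rho 0.8 (exact p = 0.0138, adjusted p = 0.0553), with r = 0.865 without the 2 pools farthest in CCT2. Their r was 0.863 without replicate 1 and 0.855 without replicates 1 and 6, where CCT5 with CCT6, a pair from different sides, was closer, at 0.938 without replicate 1 and 0.930 without both. CCT5 with CCT6 also had the highest rho with all river water pools, 0.95 (exact p = 0.000353, adjusted p = 0.0198, n = 9), and an r of 0.853 (exact permutation p = 0.000995, adjusted p = 0.00928), with r = 0.859 without the 2 farthest pools. In laboratory water CCT5 with CCT6 gave r = 0.829 (exact permutation p = 0.00269, adjusted p = 0.0126) and rho = 0.717 (exact p = 0.0369, adjusted p = 0.0898), with r = 0.576 without the 2 farthest pools. In laboratory water CCT2 with CCT5 gave r = 0.787 (exact permutation p = 0.0155, adjusted p = 0.0362) and rho = 0.55 (exact p = 0.133, adjusted p = 0.191), with r = 0.623 without the 2 farthest pools. CCT1 with CCT6 reached r = 0.922 (exact permutation p = 0.000402, adjusted p = 0.00928) and rho = 0.883 (exact p = 0.00308, adjusted p = 0.0361) in river water, with r = 0.920 without the 2 farthest pools, 0.897 without replicate 1 and 0.926 without replicates 1 and 6. In laboratory water the r of CCT1 with CCT6 was 0.712 (exact permutation p = 0.0276, adjusted p = 0.0515) and the rho 0.633 (exact p = 0.076, adjusted p = 0.133), with r = 0.502 without the 2 farthest pools.

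Grouped by the sides of the ring, a grouping chosen after the values were seen, the 6 pairs within CCT1, CCT2, CCT4 and CCT5 had a median r of 0.813 in river water and 0.796 in laboratory water. The 6 pairs within CCT3, CCT6, CCT7 and CCT8 had 0.135 in river water and 0.819 in laboratory water. The 16 pairs across the sides had 0.263 in river water and 0.791 in laboratory water. CCT6 with CCT8 was the only pair within CCT3, CCT6, CCT7 and CCT8 that held neither CCT3 nor CCT7. Its river water r was 0.707, with 0.750 without replicate 1 and 0.708 without replicates 1 and 6. The grouping by sides thus overlaps with the choice of CCT3 and CCT7. Without river water replicate 1 the river water median was 0.691 within CCT1, CCT2, CCT4 and CCT5, 0.335 within CCT3, CCT6, CCT7 and CCT8 and 0.583 across the sides. Without river water replicates 1 and 6 the river water median was 0.541 within CCT1, CCT2, CCT4 and CCT5, 0.316 within CCT3, CCT6, CCT7 and CCT8 and 0.518 across the sides.

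**Figure D4:**
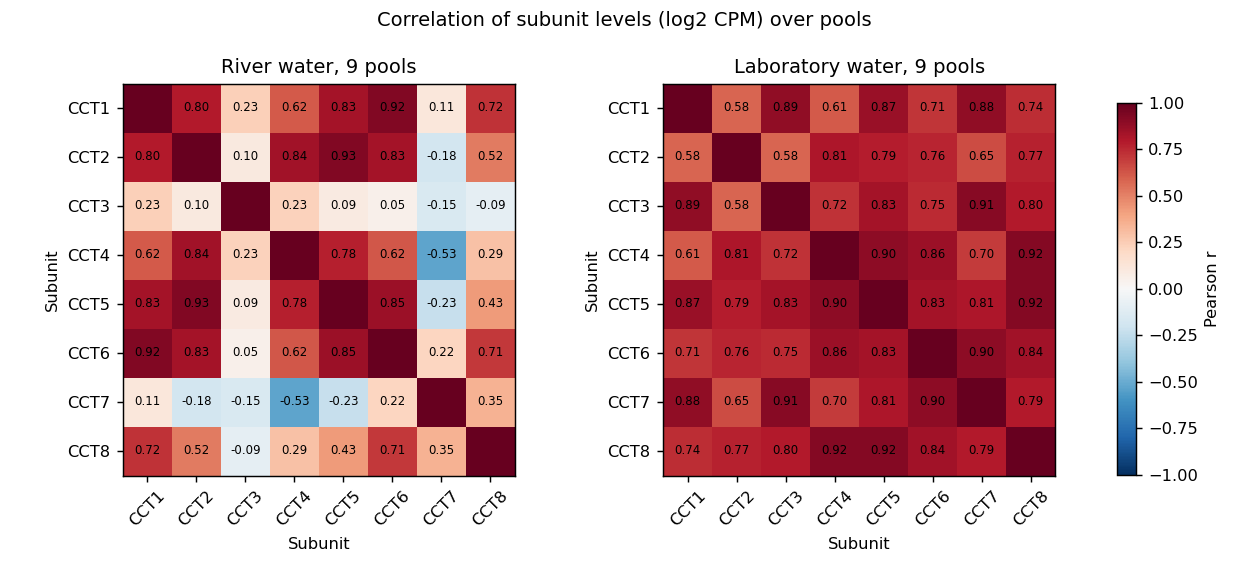
Pearson correlation (colour and printed value) of log2 CPM between subunits over the 9 pools of river water (left) and of laboratory water (right). In river water the CCT3 and CCT7 rows are pale or blue, down to -0.53 for CCT4 with CCT7 (-0.092 without replicate 1 and -0.115 without replicates 1 and 6), and in laboratory water every pair is at 0.58 or above.

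The share of each subunit in the CCT counts of a pool does not depend on library scaling. The shares overlapped between the waters for all 8 subunits. The SD of a share over the pools of a water ran from 0.145 percentage points (CCT8, laboratory water) to 0.429 (CCT7, river water). In laboratory water the SD of the CCT7 share was 0.160. The largest difference of means was in CCT4, with 14.0% ± 0.319 in river water and 13.7% ± 0.226 in laboratory water (SD, n = 9 each). CCT5 had 12.9% ± 0.246 in river water and 13.1% ± 0.160 in laboratory water, and CCT3 had 9.28% ± 0.309 in river water and 9.41% ± 0.163 in laboratory water (SD, n = 9 each). These differences were not tested.

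River water replicate 1 had an unusual mix of subunits. CCT7 made up 11.2% of its CCT counts, against 11.9% to 12.7% in the other 17 pools. CCT3 was also lowest there, at 8.83%, against 8.97% to 9.77%, and CCT8 at 11.3%, against 11.4% to 12.0%. CCT2 (13.9%, against 13.0% to 13.8%), CCT4 (14.3%, against 13.2% to 14.2%) and CCT5 (13.5%, against 12.7% to 13.3%) were highest there. CCT1 and CCT6 lay within the range of the other pools. The 3 subunits at their highest share are all of the tight ATP-binding side and the 3 at their lowest all of the other. This was seen in 1 pool, after the values were known, and was not tested. Shares add up to a fixed total, so higher shares of some subunits go with lower shares of others. CCT8 lay close to the next lowest pool (11.305% against 11.354%). The gap test given below singled out only the CCT5 and CCT7 shares in this pool.

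**Figure D5:**
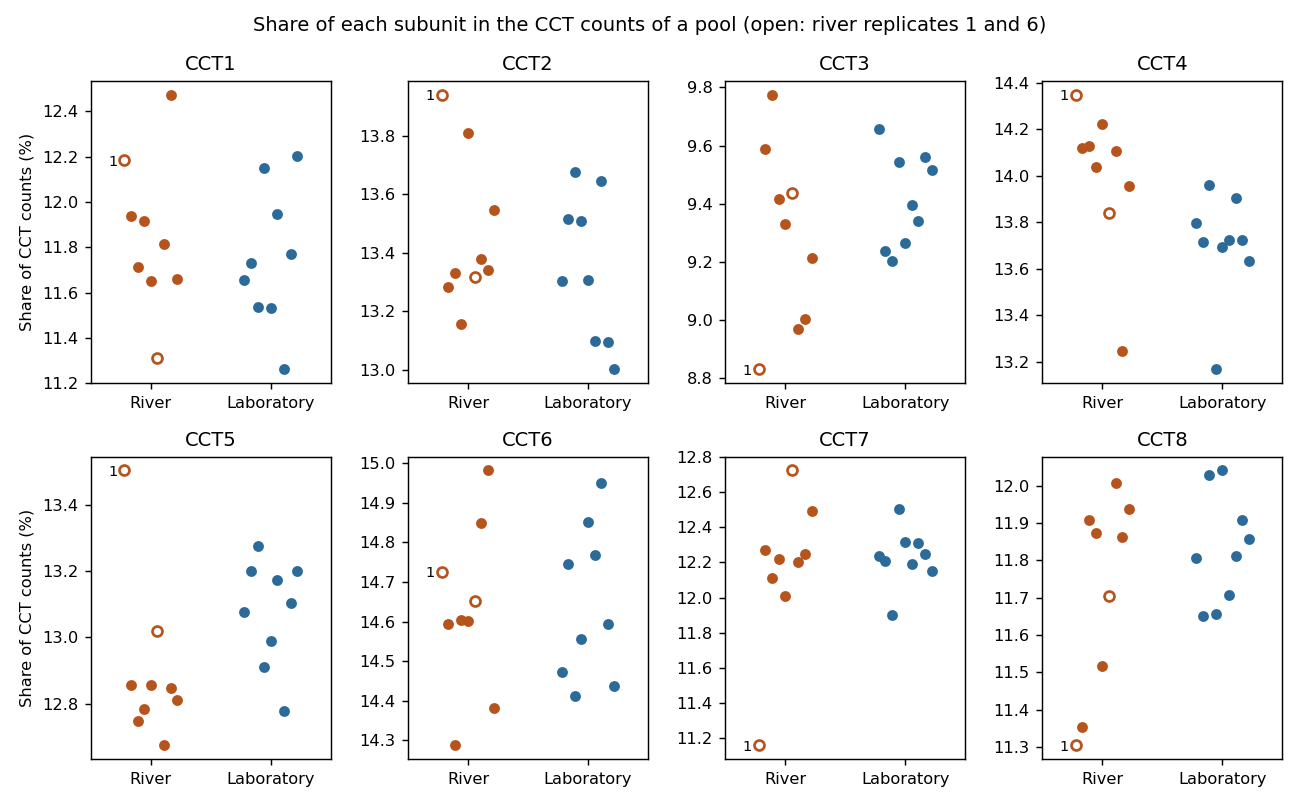
Share of each subunit in the CCT counts of its pool (percent, axes not starting at 0), for the 9 river water pools and the 9 laboratory water pools. Open circles are river water replicates 1 and 6, and replicate 1 is numbered. Replicate 1 is at the bottom for CCT3, CCT7 and CCT8 and at the top for CCT2, CCT4 and CCT5.

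Among 8691 other features, K05609 and K06965 had the profiles most like the mean of the subunits, after subtracting the mean of each water. Their r with that mean was 0.893 and 0.885 over the 18 libraries, and 0.919 and 0.920 over 16 libraries without river water replicates 1 and 6. Both features were picked by their r over the 18 libraries, so none of these values is a separate check. The median over the features compared was -0.00022. K05609 was at 69.7 ± 5.76 CPM in river water and 68.3 ± 6.33 CPM in laboratory water, and K06965 was at 34.9 ± 1.55 CPM in river water and 36.4 ± 3.92 CPM in laboratory water (SD, n = 9 each). Neither was called (adjusted p of 0.799 and 0.525, edgeR). The files give no names for them.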

How the data were processed

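The authors deposited whole-number counts per KEGG-style feature for each library, without normalization. Per the submitters' processing notes edgeR was used, with no version. No aligner, reference or counting program is named, and each was not given in the sources used here. Sample files (9025 features) were used, and the series table held the same member counts in both groups, with 0 columns unused. No sequence is printed, since no reference was used.

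The statistics used edgeR 4.0.16 (R 4.3.3) on these counts: default low-count filter (minimum count 10, total 15; 9008 features kept), TMM scaling and the robust quasi-likelihood test of water over all features. Log2 CPM used a prior count of 2. DESeq2 1.42.0 and limma 3.58.1 were alternatives, with other scalings, filters, blocks and libraries left out. The fits were tested on simulated data whose changes were all larger than those seen in the subunits. That test does not show whether changes as small as these would be found. All 8 members are named, with the 2 features (mean log2 CPM at least 1) most like their mean profile. Members, lists and several alternatives were chosen with earlier results of these data known. A list of prefoldins, tubulin cofactors, clients and cell type markers could not be matched to identifiers. Correlations over pools were tested by exact two-sided permutation of all pairings.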

Additional observations from a re-analysis of the deposited data

Results flagged for a closer look

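Dixon's gap test, which looks for a lone pool at either end, was run on 34 sets of 9 pools (the level and the CCT share of each subunit, and the summed level, in each water). It singled out 4, all of them shares, where about 1 in 20 sets would be by chance. The shares of a pool add up to a fixed total, so they are related measures.

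River water replicate 1 had the lowest CCT7 share, 11.1612%, where the other 8 river water pools had 12.0% to 12.7%. The same pool had the highest CCT5 share, 13.5044%, where the others had 12.7% to 13.0%. This pool also had the lowest total count of the 18, 14868181, and the lowest similarity to its group. Their part in these shares was not tested.

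CCT4 gave the other 2. River water replicate 8 had a CCT4 share of 13.2452%, against 13.8% to 14.3% in the other river water pools. Laboratory water replicate 4 had a CCT4 share of 13.1666%, against 13.6% to 14.0% in the other laboratory water pools.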

How the results depend on the processing

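The number of subunits called was 0 under all 34 alternatives, 18 of which left out 1 library. The lowest adjusted p of any subunit was 0.138 (CCT5, limma-voom with quality weights). Of 272 subunit values, 260 kept their direction and 12 turned, none of them called. CCT4 turned to 0.016 with library totals only and to 0.00011 in the unfiltered series table, and ran from -0.013 to 0.010 with 1 library left out. Within file number 1 (a number in the deposited file names, of unstated meaning; 3 against 3) CCT1 was 0.034 and CCT4 0.035, and without river water replicate 1 there, chosen after seeing the data, CCT3 was 0.017. The causes were not tested. The median change of the subunits was -0.019 with library totals only and -0.0030, -0.068 and -0.029 within file numbers 1, 2 and 3. With the replicate number of the sample titles as a block it was -0.039 and 0 subunits were called. With the file number as a term in the fit it was also -0.039 and 0 subunits were called. Deviations of pools with the same replicate number correlated over 0.1 in 4 of 9 pairs (-0.433 to 0.372). Of 18 libraries, 2 matched their own number best. The labels state no pairing, and these values cannot show that there was none. The features called, 565, became 899 with DESeq2, 1225 with quality weights, 356 with the replicate block, 1041 without river water replicates 1 and 6, and 0, 5 and 276 within file numbers 1, 2 and 3 (99 in number 1 without river water replicate 1). They ran from 377 to 979 with 1 library left out. The share of called features that were higher was 34.0%, and 58.7% with library totals only. The median correlation of the subunits was 0.733 (Spearman) and 0.750 (library totals) in laboratory water, with 0.725 to 0.888 when 1 pool was left out. In river water it was 0.475 (Spearman), 0.818 (library totals) and 0.523 without replicates 1 and 6, with 0.353 to 0.592 when 1 pool was left out, the highest without replicate 1.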

Other observations

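In the rings of yeast and mammals the subunits follow the order CCT2, CCT4, CCT1, CCT3, CCT6, CCT8, CCT7, CCT5. The 8 pairs of ring neighbours had a median r over pools of 0.483 in river water and 0.798 in laboratory water. The 20 pairs apart in the ring had 0.360 in river water and 0.812 in laboratory water. Without river water replicate 1 the river water medians were 0.613 for neighbours and 0.583 for pairs apart, and without replicates 1 and 6 they were 0.582 for neighbours and 0.518 for pairs apart. The difference between neighbours and other pairs was not tested in either water.

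The summed CCT level of a pool was set against its total count. In river water r was -0.316 (exact permutation p = 0.416, adjusted p = 0.416 over the 2 waters) and rho was -0.083 (exact p = 0.843, adjusted p = 0.843), n = 9, and r was 0.385 without the 2 pools of most extreme total. The river water r was 0.216 without replicate 1 (n = 8, exact permutation p = 0.613) and -0.146 without replicates 1 and 6 (n = 7, exact permutation p = 0.748). In laboratory water r was -0.424 (exact permutation p = 0.249, adjusted p = 0.416) and rho was -0.533 (exact p = 0.148, adjusted p = 0.295), n = 9, and r was -0.632 without the 2 pools of most extreme total. Neither relation passed the threshold.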
